A study of Rattus norvegicus with 418 samples.

Results

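The genes described here are 38 ribosome biogenesis and nucleolar genes, followed in rat liver after a single dose of each of 8 liver toxicants. They were chosen by name: a probe set counted if the platform annotation gave it exactly 1 gene symbol and that symbol was on the list, and where a gene had several such probe sets the one with the highest mean signal over all arrays was kept. In this way 37 of the 38 genes were measured, out of 14217 genes measured in all. The remaining gene, Npm1, was present only on a probe set with several symbols and is left out of every count. Of the 37, 9 had more than 1 probe set.

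The series held 1 Affymetrix array per animal, each from the left lateral liver lobe of a male F344/N rat of 10-12 weeks. Every rat was fasted and then killed 6, 24 or 48 h after vehicle or 1 of several doses of a compound, and a necrosis score was assigned to each liver. There were 318 dosed rats in 74 groups and 100 vehicle rats in 24 groups, mostly 4 rats per group and 6 for diquat dibromide. Corn Oil by Gavage was the vehicle for 1,2-dichlorobenzene and 1,4-dichlorobenzene (15, 150 and 1500 mg/kg each), bromobenzene (25, 75 and 250 mg/kg), monocrotaline (10, 50 and 300 mg/kg at 6 h), N-nitrosomorpholine (10, 50 and 300 mg/kg) and thioacetamide (15, 50 and 150 mg/kg), whereas PBS given I.P. was the vehicle for diquat dibromide (5, 10, 20 and 25 mg/kg) and galactosamine (25, 100 and 400 mg/kg). At 24 h a monocrotaline group carried the label 30 mg/kg and is called by that label, although the doses labelled at that time were otherwise 10 and 50 mg/kg. Its mean necrosis score was 4, against 0.5 at 50 mg/kg and 24 h. Whether the label gives the true dose cannot be settled here, so the group is not read as a lower dose than 50 mg/kg. No vehicle rat received any toxicant.

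Ribosomes are built in the nucleolus, where RNA polymerase I transcribes the precursor of the ribosomal RNAs. The precursor is folded, cut and chemically modified by small nucleolar ribonucleoproteins (snoRNPs) of the box C/D and box H/ACA kinds, by the small subunit processome and by assembly factors of the large subunit, before the subunits leave the nucleus. The genes of this machinery are widely known as targets of the transcription factor Myc, and their raised expression is a known part of the response of hepatocytes that grow and re-enter the cell cycle after injury or partial hepatectomy.

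Promoter sequences from RefSeq (build GRCr8) were found for 35 of the 38 genes, each window running from 250 bases before to 50 bases after the gene start. The letters CACGTG, which form the core E-box bound by Myc and Max and read the same on both strands, were present in 11 of 35 windows (31.4%), against 6.65% of all 27457 promoter windows and 8.92% of the 11733 windows of measured genes. The letters CCGGAAG, searched on both strands and known as an ETS-type motif, were present in 14 of 35 windows (40%), against 9.22% and 15.1%. The 2 motifs do not overlap each other in sequence, 6 genes held both, and in Gar1 a pair of CCGGAAG matches on opposite strands shared bases. These are matches of letters and not sites known to be bound. To show where the letters lie, the 120 bases before the gene start are given for 5 genes whose expression is described next, with each motif in capitals: Gnl3 (chr16:6219783-6219902, minus strand), Ddx18 (chr13:35295973-35296092, minus strand), Pes1 (chr14:83074226-83074345, plus strand), Fbl (chr1:92597287-92597406, plus strand) and Nop56 (chr3:137930059-137930178, plus strand).
Gnl3: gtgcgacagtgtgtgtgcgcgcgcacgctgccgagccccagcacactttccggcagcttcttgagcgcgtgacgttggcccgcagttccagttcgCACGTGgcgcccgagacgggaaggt
Ddx18: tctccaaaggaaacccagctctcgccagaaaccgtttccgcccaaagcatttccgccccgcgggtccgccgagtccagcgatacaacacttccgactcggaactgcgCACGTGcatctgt
Pes1: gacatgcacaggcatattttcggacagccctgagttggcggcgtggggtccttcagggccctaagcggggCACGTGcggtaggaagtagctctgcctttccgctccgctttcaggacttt
Fbl: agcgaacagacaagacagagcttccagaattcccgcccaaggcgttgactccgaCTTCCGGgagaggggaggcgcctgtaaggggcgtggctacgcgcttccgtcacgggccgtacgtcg
Nop56: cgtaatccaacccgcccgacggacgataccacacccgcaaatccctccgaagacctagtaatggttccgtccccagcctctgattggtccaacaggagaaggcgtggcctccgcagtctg

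In Gnl3, Ddx18 and Pes1 the E-box letters began 25, 13 and 50 bases before the start. Fbl held the ETS-type letters (read here on the opposite strand as CTTCCGG) 66 bases before the start and an E-box 21 bases after it, outside the printed stretch. Nop56, whose signal rose in the largest number of dosed groups, held neither set of letters in its window. Over the highest doses, the median of the log2 changes was 0.82 for the 11 genes with the E-box letters and 0.89 for the 23 measured genes without them.

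The deposited values were MAS5 signals, and a change is given throughout as the difference of log2(signal + 16), with its standard error, between a dosed group and the vehicle group killed at that time for that compound. Between 4.24% and 18.2% of probe sets per array had a signal under 16 (median 14.8%), and 8 arrays had at most 8% under it. Arrays of 1 group correlated with a median r of 0.965 (lowest 0.84), and 0 pairs held identical values. Hepatocyte markers were bright, and 0 of the 10 measured had a median signal under 16. A gene was called changed at an adjusted p below 0.05 in limma, with Benjamini-Hochberg adjustment over all 14217 genes of each comparison. Arrays had been hybridised on 39 days, and for thioacetamide, for diquat dibromide at 25 mg/kg, for 1,4-dichlorobenzene at 1500 mg/kg and for several other groups no day held both dosed and vehicle arrays, so the day and the dose cannot be told apart within a day there. The array number limits the precision of each value. In bulk tissue, fewer cells of a type and less RNA per cell cannot be told apart.

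At 24 h nearly the whole set of ribosome biogenesis genes rose at the highest dose of most compounds. After 1,2-dichlorobenzene at 1500 mg/kg, 37 of 37 were called higher and 0 lower, with a median change of 1.76, where 22.3% of all genes were called higher and the median of all genes was 0.09. The count was also 37 for 1,4-dichlorobenzene at 1500 mg/kg (median 1.38, background 18.6%) and for thioacetamide at 150 mg/kg (median 1.45, background 30.5%). It was 35 for bromobenzene at 250 mg/kg (median 1.41, background 23.5%) and 35 for the monocrotaline group labelled 30 mg/kg (median 1.16, background 25.8%). For galactosamine at 400 mg/kg 33 were called higher (median 1.17, background 21.4%), and for N-nitrosomorpholine at 300 mg/kg 33 higher and 1 lower (median 1.13, background 27.2%). Diquat dibromide at 25 mg/kg gave only 13 (median 0.48, background 12%), and monocrotaline at 50 mg/kg gave 1 higher and 2 lower (median -0.04, background 6.07%). Over all 74 dosed groups the median change of all genes lay between -0.10 and 0.17. With only the 400 mg/kg and vehicle rats at 24 h in the fit, galactosamine had 0 calls in place of 33, while its median change did not move. A fixed block for the day gave 0 in place of 13 for diquat dibromide. After 1,2-dichlorobenzene and after thioacetamide at these doses, every dosed rat lay above every vehicle rat for 37 of the 37 genes, which held for 21.7% and 27.9% of all genes.

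**Figure D1:**
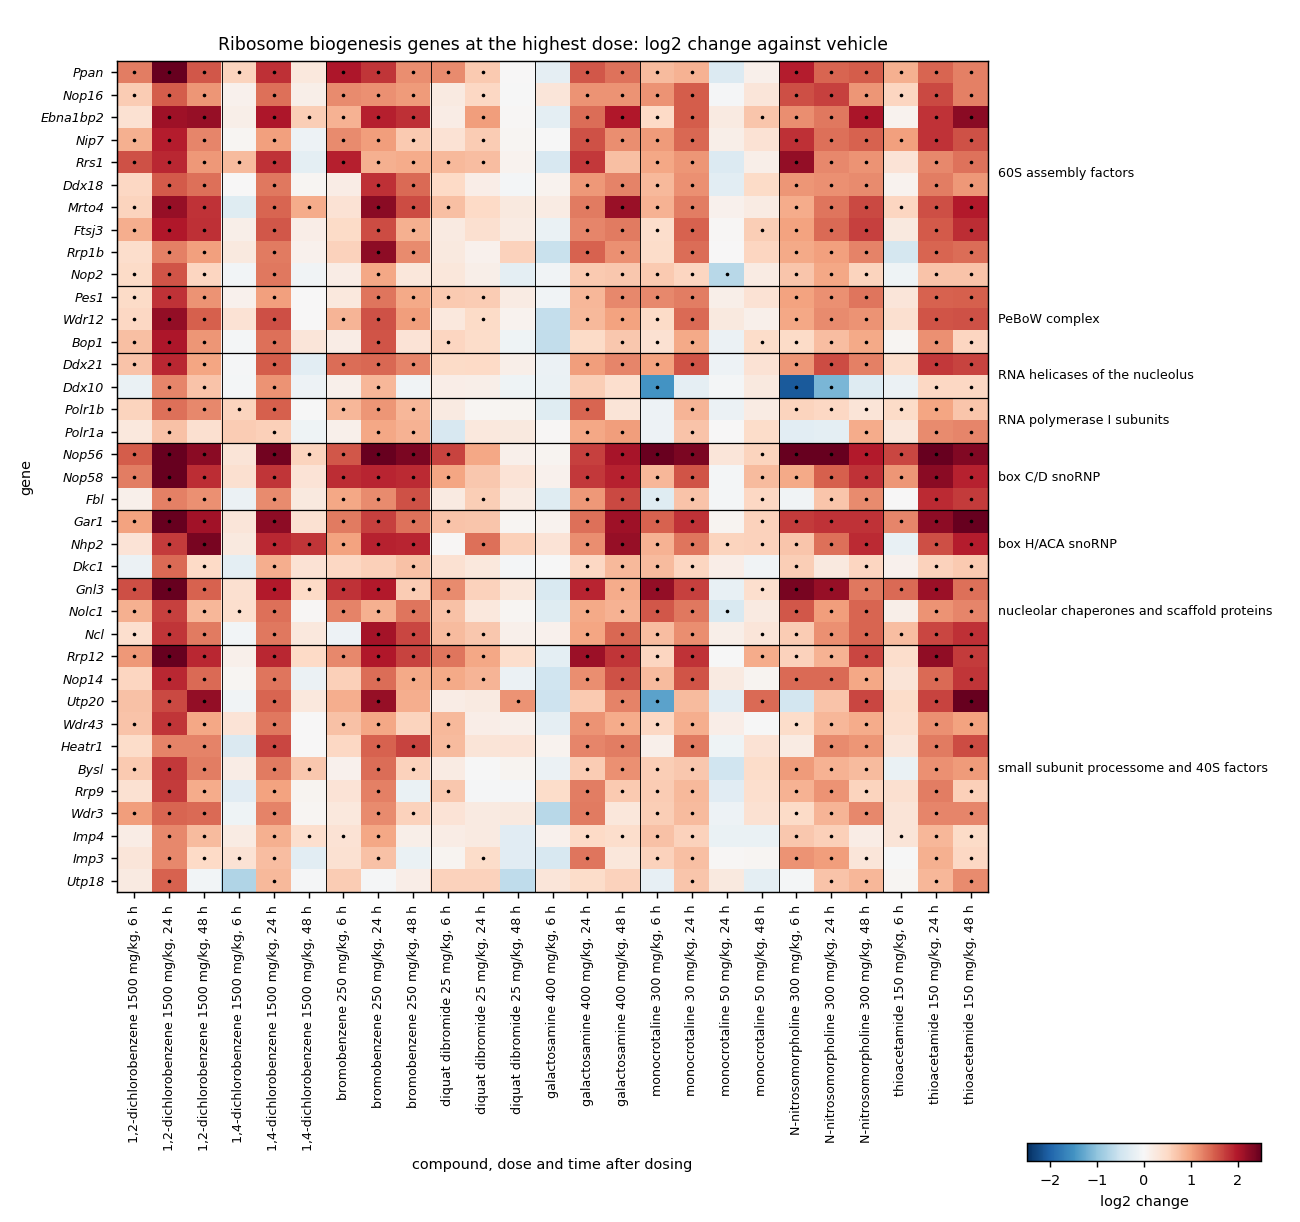
Log2 change from vehicle of each of the 37 measured genes (vertical axis, grouped by role) at the highest dose of each compound and time (horizontal axis), shown as colour that saturates at the ends of the scale, with a dot where the change was called. The 24 h columns are coloured as higher almost throughout except for diquat dibromide and monocrotaline at 50 mg/kg, Nop56 reaches 3.38, and Ddx10 has the lowest value, -2.10.

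The box C/D snoRNP proteins gave some of the largest changes. Nop56 and Nop58 are core proteins of these particles, which guide 2'-O-methylation of ribosomal RNA, and Fbl (fibrillarin) is their methyltransferase. In the 4 vehicle rats of 1,2-dichlorobenzene at 24 h the Nop56 signal was 1037, 1075, 1095 and 1277, and in the 4 rats given 1500 mg/kg it was 10679, 11572, 12244 and 12801. The groups did not overlap, and the change of 3.38 ± 0.19 (adjusted p 1.1e-18) was the largest of any of the 37 genes in the 74 dosed groups. For thioacetamide at 24 h Nop56 was 718, 786, 998 and 1054 in vehicle rats and 5869, 5869, 6414 and 7257 at 150 mg/kg (2.83 ± 0.16, adjusted p 5.24e-19). For N-nitrosomorpholine it was 772, 863, 901 and 977 against 3885, 5073, 5638 and 5828 at 300 mg/kg (2.51 ± 0.14, adjusted p 4.29e-20). In each of these comparisons the groups were wholly apart. In the monocrotaline group labelled 30 mg/kg Nop56 was 4360, 4526, 4547 and 4878, against 609, 889, 966 and 1138 in vehicle rats (2.36 ± 0.17, adjusted p 2.25e-15), whereas at 50 mg/kg it was 831, 1080, 1236 and 1286, which overlapped with the vehicle rats (0.31 ± 0.17, adjusted p 0.295). Nop58 rose from 1657, 1670, 1880 and 2156 in vehicle rats to 9360, 11345, 11560 and 13495 after 1,2-dichlorobenzene (2.62 ± 0.16, adjusted p 4.62e-18). Fbl moved less than its partners after that compound (1.26 on the log2 scale) and most after thioacetamide at 24 h, where it was 1132, 1302, 1363 and 1454 in vehicle rats and 4346, 4784, 4898 and 5181 at 150 mg/kg (1.86 ± 0.12, adjusted p 2.76e-17).

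**Figure D2:**
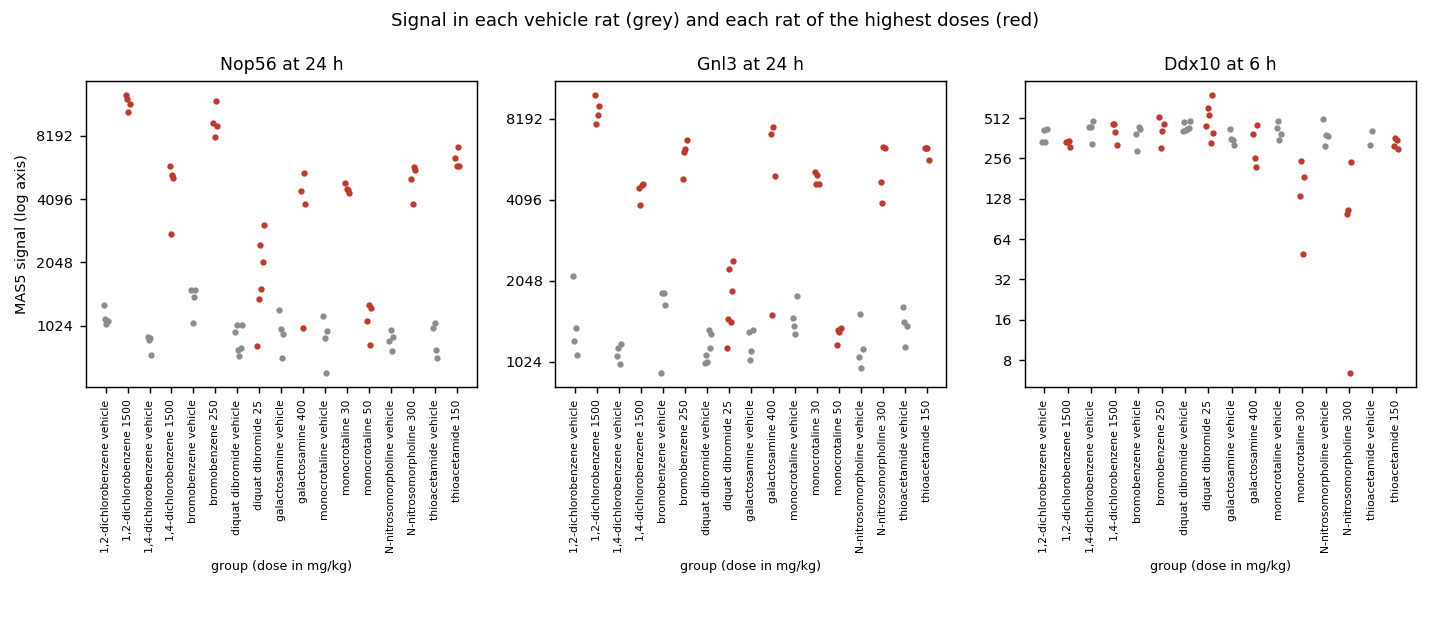
MAS5 signal of single rats (vertical log axis), 1 point per rat, grey for vehicle and red for the highest dose of each compound (horizontal axis, dose in mg/kg), for Nop56 and Gnl3 at 24 h and Ddx10 at 6 h. Nop56 runs from 10679 to 12801 after 1,2-dichlorobenzene with its vehicle rats at most at 1277, while Ddx10 falls to 6.4 in a rat given N-nitrosomorpholine.

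The box H/ACA proteins, which carry out pseudouridylation of ribosomal RNA, had their larger changes at 24 and 48 h. Dkc1 (dyskerin) is the pseudouridine synthase, and Gar1 and Nhp2 are its partners. Dkc1 was 651, 676, 765 and 806 in vehicle rats of 1,2-dichlorobenzene at 24 h and 1572, 1903, 1959 and 2419 at 1500 mg/kg, with no overlap (1.41 ± 0.15, adjusted p 2.17e-10). Gar1 after thioacetamide at 48 h was 262, 263, 267 and 291 in vehicle rats and 1513, 1567, 1693 and 1738 at 150 mg/kg (2.52 ± 0.17, adjusted p 1.18e-16). For Nhp2 the median change over the highest doses was 0.34 at 6 h, 1.50 at 24 h and 1.88 at 48 h, while for Gnl3 the medians were 1.52, 1.98 and 0.78, a different order of times. Nhp2 also stood out after 1,4-dichlorobenzene at 1500 mg/kg and 48 h, when few of the other genes were changed: it was 957, 1108, 1110 and 1153 in vehicle rats and 3496, 3566, 3691 and 4417 in dosed rats (1.79 ± 0.10, adjusted p 6.25e-18).

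Among the nucleolar chaperones and scaffold proteins, Gnl3 (nucleostemin), a GTP-binding nucleolar protein, rose in 36 of the 74 dosed groups. It was 1080, 1224, 1367 and 2124 in vehicle rats of 1,2-dichlorobenzene at 24 h and 7838, 8435, 9096 and 10015 at 1500 mg/kg (2.64 ± 0.21, adjusted p 2.67e-14). Nolc1, a protein that links snoRNPs with the nucleolus, was 413, 456, 473 and 552 against 1422, 1545, 1557 and 1803 in the same rats (1.71 ± 0.15, adjusted p 7.95e-13). In neither gene did the groups overlap. Ncl (nucleolin), an abundant RNA-binding protein of the nucleolus, was 2184, 3266, 3468 and 4825 in vehicle rats of bromobenzene at 24 h and 13203, 13715, 14689 and 14848 at 250 mg/kg (2.09 ± 0.28, adjusted p 2.05e-08). At 6 h the same dose gave 2260, 2988, 3479 and 5952 against 2792, 3277, 4379 and 5094, and the groups overlapped (-0.14 ± 0.28, adjusted p 0.83).

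Both measured RNA polymerase I subunits were called higher in some groups. Polr1b, the second largest subunit, was called higher in 29 of 74 groups. It was 329, 384, 389 and 394 in vehicle rats of 1,4-dichlorobenzene at 24 h and 1009, 1041, 1112 and 1186 at 1500 mg/kg (1.50 ± 0.15, adjusted p 2.56e-11). Polr1a, the largest subunit, was called higher in 14 of 74 groups. It was 230, 297, 382 and 402 in vehicle rats of thioacetamide at 48 h and 706, 758, 759 and 835 at 150 mg/kg, without overlap (1.21 ± 0.20, adjusted p 1.79e-06).

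The factors of large subunit assembly rose together with the snoRNP proteins. Of 10 such factors, 10 were called higher at 24 h at the highest dose of 1,2-dichlorobenzene (median 1.92), 1,4-dichlorobenzene (1.42), bromobenzene (1.71), galactosamine (1.35), N-nitrosomorpholine (1.32) and thioacetamide (1.50), and in the monocrotaline group labelled 30 mg/kg (1.34). The PeBoW complex (Pes1, Bop1 and Wdr12), which is needed to process the large subunit RNAs, rose in full after 1,2-dichlorobenzene at 24 h: Pes1 changed by 1.80 ± 0.16 (adjusted p 1.16e-12) and Wdr12 by 2.20 ± 0.14 (adjusted p 5.29e-17). Bop1 was 596, 625, 631 and 738 in the vehicle rats and 2129, 2682, 2958 and 3060 in the dosed rats (2.03 ± 0.14, adjusted p 1.85e-16). Mrto4, a factor that holds the place of the ribosomal stalk protein, changed by 2.26 ± 0.19 after bromobenzene at 250 mg/kg (adjusted p 2.65e-14). Nop16 rose from 1087, 1163, 1230 and 1273 in vehicle rats to 2879, 3483, 3522 and 3771 after 1,2-dichlorobenzene at 24 h (1.51 ± 0.12, adjusted p 7.73e-14). Nip7 was 529, 549, 596 and 679 in vehicle rats of thioacetamide at 48 h and 1697, 1781, 1813 and 1887 at 150 mg/kg (1.59 ± 0.13, adjusted p 4.15e-14), and Ebna1bp2, the relative of yeast Ebp2, changed by 2.26 ± 0.14 there (adjusted p 5.87e-18). Ddx18, an RNA helicase, was 224, 275, 369 and 407 in vehicle rats of bromobenzene at 24 h and 1011, 1038, 1217 and 1362 at 250 mg/kg (1.83 ± 0.20, adjusted p 1.35e-10).

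The small subunit processome and 40S factors were uneven. All 11 were called higher at 24 h after 1,2-dichlorobenzene (median 1.64), 1,4-dichlorobenzene (1.31) and thioacetamide (1.22). Rrp12, an export factor of pre-40S particles in yeast, was 142, 193, 247 and 266 in vehicle rats of galactosamine and 241, 1388, 1513 and 1697 at 400 mg/kg (2.15 ± 0.35, adjusted p 9.38e-06), and the rat at 241 lay within the vehicle range. Rrp9, a protein of the U3 snoRNP, was 358, 368, 449 and 455 against 1266, 1323, 1474 and 1532 after 1,2-dichlorobenzene (1.74 ± 0.19, adjusted p 1.2e-10). Nop14 was 170, 240, 248 and 292 in vehicle rats of thioacetamide at 24 h and 585, 625, 656 and 760 at 150 mg/kg (1.43 ± 0.16, adjusted p 4.29e-10). Imp3, which binds U3 snoRNA with Imp4, moved less, from 604, 645, 676 and 760 to 1145, 1197, 1292 and 1370 (0.88 ± 0.11, adjusted p 1.21e-09), still without overlap. Utp18 was called in 10 of 74 groups only. After 1,2-dichlorobenzene at 24 h it was 127, 139, 145 and 151 in vehicle rats and 237, 279, 639 and 726 in dosed rats (1.48 ± 0.30, adjusted p 6.78e-05). Heatr1, a processome protein needed for RNA polymerase I transcription, was 26.7, 85.7, 114 and 202 in vehicle rats of bromobenzene at 48 h and 277, 286, 326 and 430 at 250 mg/kg (1.69 ± 0.40, adjusted p 0.000577).

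At 6 h the order of the compounds was different, and for several compounds a lower dose gave more calls than the highest. Bromobenzene called 25 of 37 genes higher at 25 mg/kg (median 0.91, background 2.67%), 34 at 75 mg/kg (median 1.27, background 8.09%) and 18 at 250 mg/kg (median 0.64, background 7.35%). For Nop56 the vehicle rats were at 870, 924, 1061 and 1672. Rats at 25 mg/kg were at 2538, 3249, 4171 and 4302 (1.66 ± 0.21, adjusted p 2.51e-07), rats at 75 mg/kg at 4645, 5659, 8147 and 9584 (2.61 ± 0.21, adjusted p 3.22e-13) and rats at 250 mg/kg at 2554, 3061, 3630 and 3837 (1.55 ± 0.21, adjusted p 3.81e-07). The rats at 75 mg/kg lay above those of both other doses. Rrs1, a factor that recruits the 5S RNP in yeast, was 333, 463, 516 and 632 in vehicle rats and 2130, 2447, 2926 and 3422 at 75 mg/kg (2.46 ± 0.23, adjusted p 1.05e-11). Ddx21, an RNA helicase linked to RNA polymerase I transcription, changed by 1.94 ± 0.26 there (adjusted p 1.2e-07).

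Thioacetamide at 6 h called 25 genes higher at 15 mg/kg (median 0.76, background 8.32%), 22 at 50 mg/kg (median 0.61, background 10.7%) and 11 at 150 mg/kg (median 0.33, background 9.43%), with 2 vehicle rats in that comparison. Monocrotaline called 4 at 10 mg/kg (median 0.21, background 1.77%), 33 higher and 1 lower at 50 mg/kg (median 1.19, background 17.5%) and 29 higher and 3 lower at 300 mg/kg (median 0.65, background 18.3%). Nop58 at 6 h of monocrotaline was 1523, 1545, 1571 and 1743 in vehicle rats and 5658, 6903, 7217 and 8479 at 50 mg/kg (2.12 ± 0.15, adjusted p 1.88e-15), whereas at 300 mg/kg it was 2222, 2595, 3328 and 3372 (0.83 ± 0.15, adjusted p 1.36e-05), above all vehicle rats and below all rats at 50 mg/kg. Nop56 overlapped between these doses, with 5443, 5885, 7518 and 7687 at 50 mg/kg and 4779, 6068, 6227 and 6718 at 300 mg/kg, against 1008, 1010, 1081 and 1088 in vehicle rats.

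Galactosamine at 6 h called 5 genes higher at 100 mg/kg (median 0.21, background 4.7%) and 0 at 400 mg/kg (median -0.14, background 1.08%). Nop56 was 792, 829, 830 and 931 in vehicle rats, 1751, 2401, 2471 and 2757 at 100 mg/kg (1.44 ± 0.25, adjusted p 9.09e-05) and 834, 853, 918 and 956 at 400 mg/kg (0.07 ± 0.25, adjusted p 0.904). The rats at the higher dose overlapped with the vehicle rats, and those at the lower dose lay above them. Rrs1 at 400 mg/kg was 234, 309, 660 and 1043, against 546, 609, 655 and 744 in vehicle rats (-0.41 ± 0.36, adjusted p 0.551), a wide overlap.

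The doses at 6 h were compared directly, over dosed rats, in a comparison chosen after the dose pattern had been seen. No setting with the hybridisation day was fitted for these dose comparisons. Bromobenzene at 250 mg/kg was lower than at 75 mg/kg for 10 genes (4.64% of all genes called lower, median -0.54), led by Ddx18 (-1.26), Nop56 (-1.06) and Ncl (-1.06). All 4 arrays at 75 mg/kg were hybridised on the day of the vehicle arrays and 0 of 4 at 250 mg/kg were. Dose and day therefore cannot be told apart in that comparison. Galactosamine at 400 mg/kg was lower than at 100 mg/kg for 8 genes (4.94%, median -0.27), led by Rrs1 (-1.41), Nop56 (-1.36) and Gnl3 (-1.15). Monocrotaline at 300 mg/kg was lower than at 50 mg/kg for 24 genes (18.7%, median -0.61), led by Nop58 (-1.30) and Rrs1 (-1.29). Thioacetamide at 150 mg/kg was lower than at 15 mg/kg for 15 genes (11.5%, median -0.39), led by Rrp1b (-0.89), and lower than at 50 mg/kg for 2 (0.886%). The number called between the 2 highest doses was 0 for 1,2-dichlorobenzene (median -0.19), 1,4-dichlorobenzene (0.10) and N-nitrosomorpholine (-0.01). Few of all 14217 genes were called there: 28, 59 and 3 higher and 53, 93 and 19 lower. Diquat dibromide gave 1 higher and 1 lower at 25 against 20 mg/kg, with 750 of all genes higher and 1257 lower.

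The remaining compounds at 6 h differed in how low a dose was enough. N-nitrosomorpholine called 18 genes higher at 10 mg/kg (median 0.42, background 4.94%), 32 higher and 1 lower at 50 mg/kg (median 0.94, background 16.9%) and 31 higher and 1 lower at 300 mg/kg (median 0.94, background 18.2%). Gnl3 was 1416, 1696, 1766 and 1769 in its vehicle rats and 7260, 8872, 9131 and 9425 at 300 mg/kg (2.37 ± 0.16, adjusted p 2.87e-16), far outside the vehicle range. 1,2-dichlorobenzene called 29 at 150 mg/kg (median 0.79, background 6.72%) and 21 at 1500 mg/kg (median 0.55, background 5.9%), and 1,4-dichlorobenzene called 0 at 150 mg/kg (background 1.32%) and 5 at 1500 mg/kg (median 0.12, background 4.45%).

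The response to diquat dibromide at 6 h was split between rats. At 25 mg/kg 16 genes were called higher (median 0.47, background 10.3%), or 3 when only the groups compared were fitted, and at 20 mg/kg 23 (median 0.59, background 5.54%). Of the 6 rats at 25 mg/kg, the 2 with a necrosis score of 0 had Nop56 signals of 984 and 1042, within the vehicle range of 878 to 1543, and the 4 with scores from 1 to 4 had 6052, 7114, 9222 and 9429. Each liver's level of the whole set is summarised by the median, over the 37 genes, of its difference from the vehicle mean. This median was -0.10 and -0.07 in the rats with a score of 0 and ran from 0.42 to 0.97 in the 4 others. At 20 mg/kg the match was not complete: rats with scores of 2, 1 and 2 had medians of 0.84, 0.81 and 1.06, a pair of rats with a score of 0 had -0.05 and -0.21, and 1 rat with a score of 0 had 0.91 and a Nop56 signal of 5345.

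**Figure D3:**
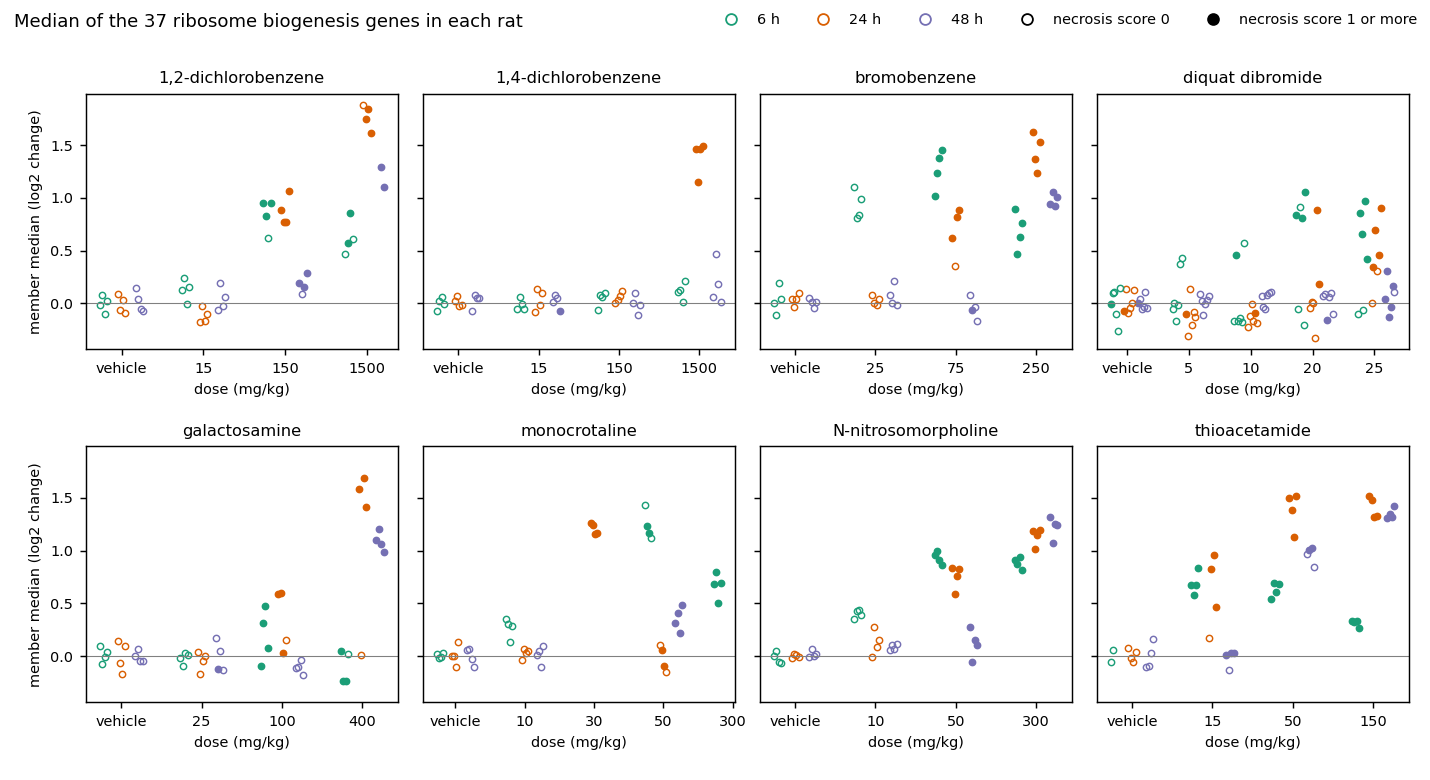
Median over the 37 genes of the log2 difference from the vehicle mean (vertical axis) in each rat, by dose (horizontal axis), 1 panel per compound, with colour for the time and a filled circle for a necrosis score of 1 or more. Rats of diquat dibromide at 20 and 25 mg/kg lie in a low and a high set at 6 h, and 1 rat of galactosamine at 400 mg/kg and 24 h is at 0.01 while the other rats are at 1.41 to 1.69.

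Across the study, livers with necrosis were compared with livers without it inside the same group of compound, dose and time. 30 of 37 genes were called higher in livers with necrosis and 0 lower, with a median difference of 0.24, where 16.6% of all genes were called higher and 14.4% lower. Nop56 differed by 0.61 ± 0.07 (adjusted p 5.57e-13), Rrp12 by 0.51, Nop58 by 0.42 and Gar1 by 0.38. Polr1a, Rrs1, Ddx10, Imp3, Imp4, Bysl and Utp18 were not called. Without diquat dibromide the number called was 13, with 4.83% of all genes called higher. In the comparison over all compounds 24 of 32 cell cycle genes (median 0.40), 7 of 10 macrophage markers (0.23) and 5 of 7 neutrophil markers (0.71) were also called higher, and 5 of 10 hepatocyte markers lower. Their part in the difference was not tested. The group medians ran the same way in 17 of the 25 dosed groups that held both kinds of liver. At each time 1 vehicle rat, of diquat dibromide, also had necrosis. The medians of the rats in these vehicle groups were at most 0.15, 0.14 and 0.10 at 6, 24 and 48 h. By score, the middle rat's median of the 37 genes at 24 h was 0.00 in 51 dosed rats with a score of 0 (highest rat 1.88), 0.83 in 23 with a score of 1, 0.77 in 9 with a score of 2, 1.14 in 10 with a score of 3 and 1.33 in 15 with a score of 4. At 6 h it was 0.10 in 54 rats scored 0, 0.70 in 41 scored 1 and 0.84 in 11 scored 2, while the single rats scored 3 and 4 were at 0.66 and 0.42. At 48 h it was 0.058 in 59 rats scored 0, 0.037 in 18 scored 1, 0.31 in 9 scored 2, 1.10 in 3 scored 3 and 1.24 in 13 scored 4. The order was therefore not that of the scores throughout at any of the times.

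The genes changed between times in compound-specific ways. From 6 to 24 h at the highest dose, the change from vehicle grew for 35 genes after 1,4-dichlorobenzene (median difference 1.31, 14.6% of all genes called higher), 34 after thioacetamide (1.02, 22.2%), 31 after 1,2-dichlorobenzene (1.13, 14%), 30 after galactosamine (1.25, 14.6%) and 19 after bromobenzene, with 1 lower (0.78, 16.7%). With array medians centred bromobenzene had 8 higher and 3 lower (median 0.42). After N-nitrosomorpholine 6 grew and 3 shrank (0.15), where 17.5% of all genes were called higher and 11.2% lower, so the members' share was no larger than the background. With array medians centred its median turned to -0.10, with 3 higher and 5 lower. From 24 to 48 h 31 genes fell back after 1,4-dichlorobenzene (median -1.24, 11.4% of all genes called lower), led by Rrs1 (-2.06), Gar1 (-1.86) and Nop56 (-1.85), and 14 fell after 1,2-dichlorobenzene (-0.55, 4.41%), or 5 to 16 with 1 rat of each dosed or vehicle group left out. After bromobenzene at 250 mg/kg 7 fell and 0 rose (-0.41, with 8.08% of all genes lower and 11.2% higher). After the dichlorobenzenes 0 genes of the set rose in this interval, where 9.9% and 9.08% of all genes were called higher for the 1,4 and the 1,2 isomer, and after diquat dibromide 4 fell and 0 rose (median -0.39, with 3.24% of all genes lower and 2.53% higher). Nop56 after 1,4-dichlorobenzene at 1500 mg/kg was 2796, 5168, 5309 and 5879 at 24 h, against 743, 877, 891 and 905 in vehicle rats, and 882, 910, 1075 and 1420 at 48 h, against 685, 688, 704 and 758 (0.56 ± 0.18, adjusted p 0.0221), so the dosed rats still lay above the vehicle rats. Monocrotaline at 50 mg/kg fell for 32 genes from 6 to 24 h (median -1.17, 11.4%), led by Rrs1 (-2.59), Gnl3 (-2.44) and Nop56 (-2.32), and rose for 9 from 24 to 48 h (0.47, 2.24%), a count that was 1 to 7 with 1 rat of each dosed or vehicle group left out. With hybridisation day as a fixed block, the 35 and 31 calls of 1,4-dichlorobenzene were 3 and 3. For galactosamine, fitting only the groups compared gave 0 calls in place of 30, and leaving out rat 3 of every dosed group gave 15.

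At 48 h the number of genes called higher at the highest doses ran from 1 to 37. Counts of genes called higher were 37 for thioacetamide at 150 mg/kg (median 1.38, background 36.1%), 35 for 1,2-dichlorobenzene at 1500 mg/kg (1.22, 18.6%, with 2 dosed rats), 35 for N-nitrosomorpholine at 300 mg/kg (1.18, 30.1%), 31 for galactosamine at 400 mg/kg (1.14, 30.2%) and 28 for bromobenzene at 250 mg/kg (0.95, 22.1%). They were 12 for monocrotaline at 50 mg/kg (0.37, 5.11%), 7 for 1,4-dichlorobenzene at 1500 mg/kg (0.10, 10.6%) and 1 for diquat dibromide at 25 mg/kg (0.09, 5.5%). Nop58 after N-nitrosomorpholine was 1167, 1199, 1376 and 1690 in vehicle rats and 4237, 4511, 4959 and 5430 at 300 mg/kg (1.81 ± 0.15, adjusted p 1.01e-14). Nop56 after galactosamine at 400 mg/kg was 773, 774, 905 and 919 against 3017, 3363, 3647 and 4225 (2.05 ± 0.25, adjusted p 7.68e-09). In both comparisons every dosed rat exceeded every vehicle rat. With the day as a fixed block the counts were 2 for galactosamine, 4 for monocrotaline and 1 for 1,4-dichlorobenzene. The monocrotaline count was also 4 with all arrays in 1 fit, and 7 to 16 with 1 rat of each dosed or vehicle group left out.

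Several lower doses gave fewer calls at 48 h than at 24 h. Thioacetamide at 50 mg/kg called 37 at 24 h (median 1.36, background 28.3%) and 33 higher with 1 lower at 48 h (0.97, 30.4%), whereas 15 mg/kg called 29 at 24 h (0.59, 9.17%) and 3 higher with 2 lower at 48 h (0.01, 5.53%). Gnl3 at 15 mg/kg and 48 h was 1067, 1101, 1155 and 1231, below the 1285, 1349, 1772 and 1906 of the vehicle rats (-0.45 ± 0.14, adjusted p 0.0281). N-nitrosomorpholine at 50 mg/kg called 30 at 24 h (0.79, 19.7%) and 7 at 48 h (0.13, 10.4%), and bromobenzene at 75 mg/kg called 20 higher and 1 lower at 24 h (0.70, 10.4%). At 48 h bromobenzene called 0 at 75 mg/kg (median -0.07, background 0.872%) and 0 at 25 mg/kg (0.05, 0.0141%).

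Most of the doses not yet described gave few calls, also among all genes. 1,4-dichlorobenzene at 150 mg/kg called 0 genes of the set at 24 h (median 0.03) and 0 at 48 h (median -0.01), with a background of 0.0563% at both times. At 15 mg/kg the count was 0 higher for both dichlorobenzenes at all times, with a background between 0% and 0.506%. Diquat dibromide called 0 at 5 mg/kg and 24 h (median -0.15, background 0.00703%), 0 at 10 mg/kg and 24 h (-0.14, 2.03%), 0 at 10 mg/kg and 48 h (0.01, 0.0211%) and 0 at 20 mg/kg and 24 h (0.14, 0.352%). Galactosamine called 0 at 25 mg/kg at any time (background 0%) and 0 at 100 mg/kg at 24 h (median 0.31, background 0.267%) and 48 h (-0.13, 0.0352%). N-nitrosomorpholine at 10 mg/kg, after its 18 calls at 6 h, called 1 at 24 h (0.15, 1.33%) and 0 at 48 h (0.10, 0.345%), and monocrotaline at 10 mg/kg called 0 at 24 h (0.01, 0.0563%) and at 48 h (-0.02, 0.0211%).

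The rise of the ribosome biogenesis genes was set beside that of 32 cell cycle genes (such as Pcna, the DNA polymerase clamp, and Mki67, a marker of cycling cells). Of these, Bub1b (12.9) and Kif20a (15.9) had a median signal under 16, and Ccna2 (20.9) and Cdkn3 (23.7) lay close to it. At 6 h at most 5 cell cycle genes were called higher in any dosed group, and in 11 of 25 dosed groups at that time at least 19 of the 37 ribosome biogenesis genes were called higher without 16 cell cycle genes being so. At 24 h 7 groups met only the first condition and 5 met both, and 0 met only the second. The conditions count calls, and the cell cycle median was above 0 in all 7 groups. Medians of the 2 sets were 0.79 and 0.82 for N-nitrosomorpholine at 50 mg/kg, where 15 cell cycle genes were called. They were 0.88 and 0.78 for 1,2-dichlorobenzene at 150 mg/kg and 0.59 and 0.48 for thioacetamide at 15 mg/kg. Elsewhere the cell cycle median lay further below, such as 0.42 against 1.76 for 1,2-dichlorobenzene at 1500 mg/kg. At 48 h 4 groups met only the cell cycle condition, 6 met both and 0 met only the first. 1,4-dichlorobenzene at 1500 mg/kg showed a change of order. There 37 ribosome biogenesis genes and 8 cell cycle genes (medians 1.38 and 0.49) were called higher at 24 h, and 7 and 23 (0.10 and 1.70) at 48 h. No day held both dosed and vehicle arrays at that dose, so dose and day cannot be told apart there. 1,2-dichlorobenzene at 150 mg/kg gave 31 ribosome biogenesis genes at 24 h (median 0.88, background 14%) and 2 at 48 h (0.20, 1.32%), when 20 cell cycle genes were higher (1.82). Diquat dibromide at 25 mg/kg gave 1 and 21 at 48 h. After thioacetamide at 150 mg/kg both sets were high at once, with cell cycle medians of 1.54 at 24 h and 3.46 at 48 h, and Mki67 changed by 5.89 ± 0.32 at 48 h (adjusted p 3.57e-20). These are rats killed at different times, so no liver was followed.

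**Figure D4:**
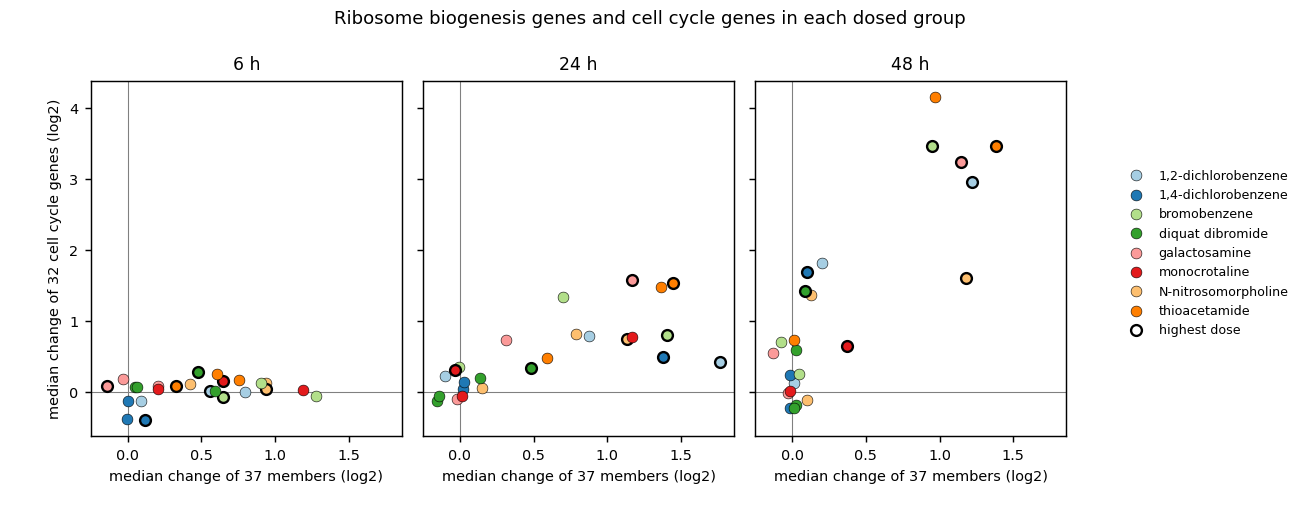
Median log2 change of the 37 ribosome biogenesis genes (horizontal axis) against that of 32 cell cycle genes (vertical axis), 1 point per dosed group, 1 panel per time and a thick rim for the highest dose. Points at 6 h spread along the horizontal axis with cell cycle medians near 0, and points at 48 h reach 4.15 on the vertical axis for thioacetamide at 50 mg/kg.

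The position isomers 1,2-dichlorobenzene and 1,4-dichlorobenzene, which differ in where the second chlorine sits on the ring, were compared at matched doses and times as the difference of their changes from vehicle, in 9 comparisons with p adjusted over all genes in each. At 15 mg/kg 0 of the 37 genes were called at any time. Of all 14217 genes, 17 were called higher and 3 lower at 6 h, and 0 at 24 and 48 h. At 150 mg/kg the 1,2 isomer was higher for 19 genes at 6 h (median difference 0.73, background 4.28%), 27 at 24 h (0.84, 8.64%) and 1 at 48 h (Nhp2, 0.89, with a median of 0.17 and a background of 0.619%). At 1500 mg/kg it was higher for 9 at 6 h (0.51, 2.79%), 11 at 24 h (0.43, 8.32%) and 30 at 48 h (1.02, 11.5%), and no gene of the set was called lower in these 6 comparisons. Nop56 at 24 h and 150 mg/kg was 3355, 3880, 5856 and 6308 after the 1,2 isomer (2.05 ± 0.19) and 661, 876, 884 and 1100 after the 1,4 isomer (0.03 ± 0.18), a difference of 2.03 (95% interval 1.49 to 2.57). At 1500 mg/kg and 24 h the difference was 0.97 (0.43 to 1.51), with both isomers well above vehicle. At 150 mg/kg and 48 h the interval for Nop56 ran from -0.25 to 0.83, and for Gar1 at 1500 mg/kg and 24 h from -0.10 to 0.93, so both intervals held 0 but also sizeable differences. The 2 compounds had separate vehicle groups. For the 1,4 isomer no day held both dosed and vehicle arrays at 1500 mg/kg at any time, or at 150 mg/kg at 24 and 48 h. A fixed block for the day was not fitted for the isomer comparisons, so isomer and day were not separated there. With all arrays of the series in 1 fit the counts at 1500 mg/kg were 3 at 6 h and 4 at 24 h, and 11 at 150 mg/kg and 6 h.

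A few genes of the set fell while the others rose. Ddx10, a DEAD-box helicase of small subunit processing, was 320, 375, 384 and 503 in vehicle rats of N-nitrosomorpholine at 6 h and 6.4, 99.1, 105 and 242 at 300 mg/kg, all 4 below the lowest vehicle rat (-2.10 ± 0.36, adjusted p 5.42e-06). The value of 6.4 lay under the signal of 16 that was added before taking logs, and with rat 3 of every dosed group left out, that rat included, the change was -1.41 (adjusted p 0.000242). At 50 mg/kg Ddx10 was 48.2, 197, 227 and 246 (-1.24 ± 0.36, adjusted p 0.00584), and at 24 h it was 174, 199, 240 and 268 at 300 mg/kg against 407, 481, 508 and 606 (-1.13 ± 0.36, adjusted p 0.00837). At 48 h it was no longer called (-0.32, adjusted p 0.499). Monocrotaline at 6 h gave a like pattern, with 49.2, 134, 186 and 246 at 300 mg/kg against 352, 390, 430 and 484 (-1.50 ± 0.28, adjusted p 2.04e-05). Utp20, a scaffold protein of the processome, was 48.4, 62.5, 125 and 138 there against 173, 209, 299 and 318 (-1.34 ± 0.36, adjusted p 0.00235), and at 50 mg/kg it was 83.5, 260, 283 and 337 (-0.16 ± 0.36, adjusted p 0.803). Elsewhere both genes rose: Ddx10 was 888, 955, 978 and 1033 after 1,2-dichlorobenzene at 24 h against 353, 361, 459 and 464 (1.21 ± 0.17, adjusted p 9.83e-08), and Utp20 was 371, 478, 507 and 529 after thioacetamide at 48 h against 28.5, 43.8, 68.5 and 73.4 (2.85 ± 0.27, adjusted p 2.88e-12).

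Ddx10 and Utp20 are the longest genes of the set, with 154710 and 80996 bases from start to end in the RefSeq table, followed by Polr1a with 63968. Of the 3 genes called lower after monocrotaline at 300 mg/kg and 6 h, the gene besides Ddx10 and Utp20 was shorter than all of these. Over all the highest doses, the other genes called lower were Fbl, Nolc1 and Nop2, each in 1 comparison. Their lengths were 9101, 10876 and 11804 bases, so not only long genes fell. Across the 37 genes the rank correlation (Spearman) of gene length with the change was -0.66 after N-nitrosomorpholine at 300 mg/kg and 6 h, and -0.56 after monocrotaline at 300 mg/kg and 6 h. Without Ddx10 and Utp20 it was -0.59 and -0.49, and across 14167 genes with a length it was -0.42 and -0.39. After thioacetamide at 150 mg/kg and 24 h it was -0.16 in the set and -0.06 in all genes. Values of such a size in the set also came with 0 genes called: -0.58 after diquat dibromide at 5 mg/kg and 24 h (all genes -0.045) and 0.47 after bromobenzene at 25 mg/kg and 48 h (all genes 0.0098). Genes on 1 array share the rats and the hybridisation and are not independent, so these are descriptions with no test.

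**Figure D5:**
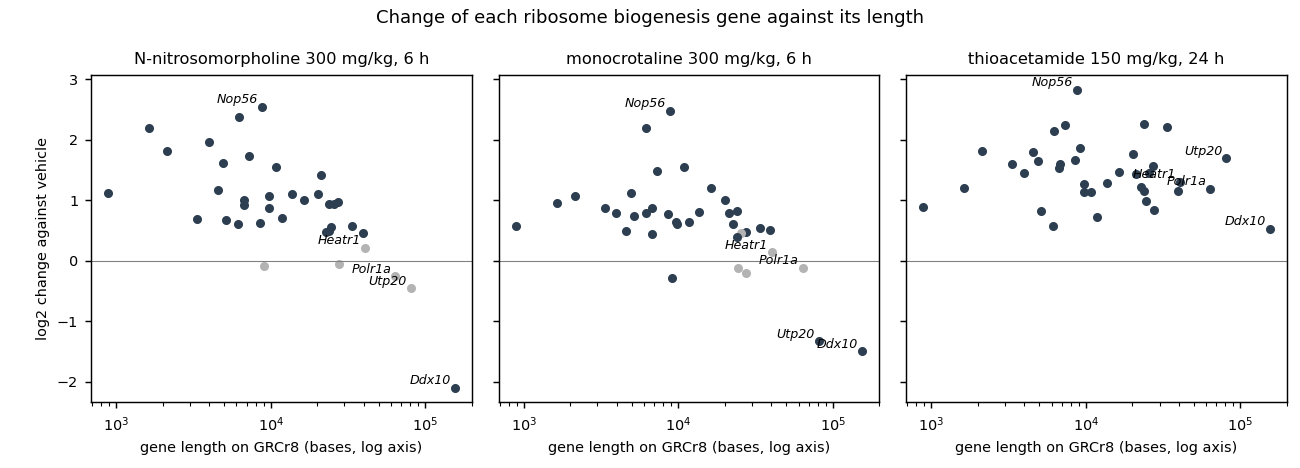
Log2 change from vehicle (vertical axis) against gene length in bases (horizontal log axis), 1 point per measured ribosome biogenesis gene, dark where the change was called and grey where it was not, for N-nitrosomorpholine and monocrotaline at 6 h and thioacetamide at 24 h. Ddx10, at 154710 bases, has the lowest change in each panel at 6 h, -2.10 and -1.50.

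Other genes of the same machinery, from lists that did not contain the 38, gave counts of the same direction. After 1,2-dichlorobenzene at 1500 mg/kg and 24 h, 64 of 68 other ribosome biogenesis factors were called higher and 0 lower (median 1.32), led by Brix1 (1.99 ± 0.13), a large subunit factor, and Utp3 (1.83 ± 0.12). Of all 14217 genes, 3176 were called higher and 2973 lower in that comparison. Of 17 further RNA polymerase I subunits and factors 15 were higher (median 0.91), with Taf1d at 2.78 ± 0.19 and Polr1c at 1.97 ± 0.16. Of 42 ribosomal proteins 37 were higher, but by less (median 0.50), with Rps3 at 1.04 ± 0.09 (adjusted p 5.5e-13). Of 10 subunits of the RNA exosome, which trims precursor RNA, 5 were higher (median 0.32). After diquat dibromide at 25 mg/kg and 6 h, by contrast, 0 of the ribosomal proteins were called, and 7 exosome subunits were called lower (median -0.42), among them Exosc4 (-0.65 ± 0.12). Of all genes, 1458 were called higher and 2284 lower there. After 1,4-dichlorobenzene at 1500 mg/kg and 48 h, 35 of 42 ribosomal proteins were higher (median 0.47) while 7 of the 37 ribosome biogenesis genes were. Of all genes, 1505 were called higher there. Myc itself rose early: at 6 h it changed by 5.35 after bromobenzene at 75 mg/kg (adjusted p 1.21e-11), 4.62 after thioacetamide at 150 mg/kg (adjusted p 4.37e-16) and 4.24 after 1,2-dichlorobenzene at 1500 mg/kg (adjusted p 1.2e-06). It was also higher later, by 4.33 at 24 h and 3.20 at 48 h after thioacetamide at 150 mg/kg. After 1,4-dichlorobenzene at 1500 mg/kg it changed by 1.66, 2.84 and 0.39 at 6, 24 and 48 h. At 6 h of galactosamine it changed by 3.52 at 100 mg/kg (adjusted p 0.000301) and by 0.56 at 400 mg/kg (adjusted p 0.677). Nop56 at 6 h too was higher at 100 than at 400 mg/kg. Later Myc was higher at 400 mg/kg, by 2.42 at 24 h (adjusted p 0.00425) and 2.68 at 48 h (adjusted p 0.00108). At 6 h of thioacetamide and monocrotaline the doses ran in opposite ways for Myc and for the set. Myc changed by 2.85, 4.37 and 4.62 after 15, 50 and 150 mg/kg of thioacetamide, where the medians of the 37 genes were 0.76, 0.61 and 0.33. It changed by 2.31 and 3.20 after monocrotaline at 50 and 300 mg/kg, where the medians were 1.19 and 0.65. For 1,2-dichlorobenzene at 150 and 1500 mg/kg and 6 h, Myc changed by 3.81 and 4.24, with medians of 0.79 and 0.55. For bromobenzene at 25, 75 and 250 mg/kg and 6 h, both were largest at 75 mg/kg: Myc changed by 3.29, 5.35 and 4.78, with medians of 0.91, 1.27 and 0.64. At 6 h N-nitrosomorpholine at 300 mg/kg called 10 of 11 targets of p53 higher (median 2.11), with Cdkn1a, an inhibitor of cyclin-dependent kinases, at 4.84 ± 0.22. Of all genes, 2589 were called higher there.

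Markers of other cell types moved with some of these changes and not with others. After thioacetamide at 150 mg/kg and 48 h, 5130 of all 14217 genes were called higher and 3044 lower. There 10 of 10 hepatocyte markers were called lower, and their summed signal was 186000 to 204400 against 415400 to 459500 in vehicle rats. In the same rats 9 of 10 macrophage markers were higher (summed signal 99340 to 109100 against 17570 to 21230) and 12 of 12 stellate and matrix markers were higher (54180 to 63430 against 9110 to 10870). Their part in the change of the ribosome biogenesis genes was not tested. After bromobenzene at 75 mg/kg and 6 h, where 34 of the 37 genes rose, 0 of 10 macrophage and 0 of 7 neutrophil markers were called higher and 1 of 10 hepatocyte markers was lower. After 1,2-dichlorobenzene at 150 mg/kg and 6 h the numbers were 0, 0 and 0 with 29 genes raised. Of all genes, 1150 were called higher and 1222 lower after bromobenzene, and 955 and 991 after 1,2-dichlorobenzene, at these doses. After 1,4-dichlorobenzene at 1500 mg/kg and 24 h, 0 macrophage and 0 neutrophil markers were higher, 4 of 10 macrophage, 8 of 12 stellate and matrix, 3 of 8 endothelial and 5 of 10 hepatocyte markers were lower, 2 endothelial markers were higher and all 37 genes were higher. Of all genes, 2651 were called higher and 2094 lower there. At 24 h neutrophil markers were called higher in other groups: 6 of 7 after bromobenzene at 250 mg/kg (median 3.57) and in the monocrotaline group labelled 30 mg/kg (3.49), 7 after N-nitrosomorpholine at 300 mg/kg (3.09), and 5 after thioacetamide at 150 mg/kg (3.23) and galactosamine at 400 mg/kg (2.42). In that order, 3340, 3670, 3869, 4338 and 3038 of all genes were called higher. The part of the neutrophil markers in the change of the 37 genes there was not tested. Of the cell type markers, only Cxcr2 of the neutrophil list had a median signal under 16.

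In vehicle rats the set was not flat over the day. Compared over all compounds, 13 of 37 genes were lower at 24 h than at 6 h and 0 higher (median -0.12), where 17.8% of all genes were called lower. Gnl3 differed by -0.49 (adjusted p 1.15e-09), Heatr1 by -0.35, Ftsj3, a large subunit methyltransferase, by -0.34 and Polr1b by -0.33. At 48 h against 6 h the count was 24, with 16% of all genes lower. At 24 h against 6 h 6 of 8 endothelial (median -0.19), 7 of 10 macrophage (-0.21) and 6 of 10 hepatocyte markers (-0.14) were also called lower, and their part in the difference was not tested. Each change given for a dose is taken against a vehicle group killed at that same time, so this drift is not contained in it.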

How the data were processed

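Liver RNA of each rat was hybridised to Affymetrix rat arrays. The values deposited by the authors were MAS5 signals on the log2 scale, 1 column per array, and the version of MAS5 was not given in the sources used here. They were turned back to signals, 16 was added and log2 taken again. Groups, doses, times and necrosis scores came from the sample labels, and 0 columns lacked a sample. Probe sets with 1 symbol were kept, 1 per gene by highest mean signal, giving 14217 genes.

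A model per compound with 1 term per group was fitted with limma 3.58.1 in R 4.3.3 (with the data.table package, version 1.17.8, and figures with matplotlib 3.10.9), and p-values were adjusted by Benjamini-Hochberg over all genes of each comparison. Isomers were compared in a fit over both compounds, and necrosis in a fit with 1 term per group. Genes named with values were the largest changes in a comparison, the most and the least changed genes, Myc, and up to 3 genes of each other list with the smallest adjusted p. The lists were other ribosome biogenesis factors, RNA polymerase I factors, exosome subunits, ribosomal proteins, cell cycle, Myc network, p53 targets and marker lists of neutrophils, hepatocytes, lymphocytes, macrophages, endothelium, cholangiocytes and stellate cells. The genes and lists were chosen with earlier results of these data known.

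Alternatives were the added signal, quantile normalization, centring of array medians, the mean of probe sets, the brighter genes only, the hybridisation day as a random or fixed block and within a day, other choices of arrays in a fit, and leaving out rats. Leaving out arrays with few dim probe sets and comparing doses at 6 h were added after seeing the data. On simulated data for bromobenzene at 250 mg/kg and 24 h with 14217 genes, the fit called 7.58% of genes changed by 0.5, 55.2% of those changed by 1 and 73.1% of those changed by 1.5, and 2 of 93 calls were false. The real comparison called 3340 genes higher and 2277 lower, so the adjustment differed and these rates need not hold there. Replicates are separate rats.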

Additional observations from a re-analysis of the deposited data

Results flagged for a closer look

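Within 96 groups of 4 to 6 rats, 3 had a rat whose median of the 37 ribosome biogenesis genes stood far from the others by Dixon's criterion, which chance meets in about 1 of 20 groups. Rat 2 of galactosamine at 400 mg/kg and 24 h was at 0.0145, with the other rats at 1.41 to 1.69. It had a necrosis score of 0, where the others had 2 or 3, its Nop56 signal was 1000 and its Myc signal 120. With rat 2 of every dosed galactosamine group left out, 36 genes were called higher and the median change was 1.58. Rat 2 of 1,4-dichlorobenzene at 1500 mg/kg and 24 h was at 1.15, with the others at 1.46 to 1.49. Rat 2 of thioacetamide at 15 mg/kg and 48 h was at -0.135.

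Differences between compounds or times that passed the test of the difference itself were as follows. The 1,2 isomer of dichlorobenzene exceeded the 1,4 isomer for 19 genes at 150 mg/kg and 6 h (4.28% of all genes), 27 at 150 mg/kg and 24 h (8.64%) and 30 at 1500 mg/kg and 48 h (11.5%). The change from vehicle was larger at 24 h than at 6 h for 31 genes after 1,2-dichlorobenzene (14% of all genes), 35 after 1,4-dichlorobenzene (14.6%), 19 after bromobenzene (16.7%), 30 after galactosamine (14.6%) and 34 after thioacetamide (22.2%). It was smaller at 48 h than at 24 h for 31 genes after 1,4-dichlorobenzene (11.4%), and smaller at 24 h than at 6 h for 32 after monocrotaline at 50 mg/kg (11.4%). Not all of these counts held under other settings: the 30 of galactosamine were 0 when only the groups compared were fitted and 15 without rat 3 of each dosed group, the 35 and 31 of 1,4-dichlorobenzene were 3 and 3 with the day as a fixed block, the 19 of bromobenzene were 8 with array medians centred, and the 19 of the isomers were 11 with all arrays in 1 fit.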

How the results depend on the processing

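No paired analysis was possible because the labels carry no replicate numbers shared between groups. The limits of these data are few rats per group, hybridisation days that often held dosed or vehicle arrays alone, and signals near background, such as those of Utp20 in some groups. Other settings that moved a number were these, with the value as reported first.

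With the day as a fixed block, the genes called higher were 1 in place of 7 for 1,4-dichlorobenzene at 48 h and 0 in place of 5 at 6 h, 20 in place of 31 for N-nitrosomorpholine at 6 h, 0 in place of 13 for diquat dibromide at 24 h, 2 in place of 31 for galactosamine at 48 h, and, after 50 mg/kg of monocrotaline, 0 in place of 1 at 24 h and 4 in place of 12 at 48 h. The median difference of times became 0.054 in place of 0.15 for N-nitrosomorpholine (24 against 6 h) and -1.52 in place of 0.09 for galactosamine (48 against 24 h). At 48 h of galactosamine the sign of Ddx21 (-0.16), Ftsj3 (-0.37), Nolc1 (-0.026), Nop2 (-0.049), Rrp9 (-0.13) and Utp20 (-0.38) turned. With a random block, 1,4-dichlorobenzene at 6 h had 3 and diquat dibromide at 48 h 0 in place of 1. The fixed block could be fitted for 20 of the 25 comparisons at the highest doses and the random block for 22. The others have no value under that setting. Thioacetamide had no fit with a random block, because each of its groups lay in 1 day.

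With array medians centred, the median difference of times was -0.10 in place of 0.15 for N-nitrosomorpholine (24 against 6 h, reversed), -0.042 in place of 0.09 (48 against 24 h), -0.81 in place of -0.55 for 1,2-dichlorobenzene (48 against 24 h), 0.42 in place of 0.78 for bromobenzene and 0.73 in place of 1.02 for thioacetamide (24 against 6 h), and -0.20 in place of -0.01 for thioacetamide (48 against 24 h). The genes called were 11 for 1,4-dichlorobenzene at 6 h, 20 for galactosamine at 48 h and 0 for the isomers at 150 mg/kg and 48 h, and Imp4 turned to -0.0303 in galactosamine at 48 h. Quantile normalization gave 0.55 for bromobenzene (24 against 6 h) and 0 for diquat dibromide at 48 h. Over the 25 comparisons at the highest doses, centring moved the median by -0.46 to 0.11 and quantile normalization by -0.25 to 0.09.

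With all arrays in 1 fit the counts were 1 for 1,4-dichlorobenzene at 6 h, 21 and 2 for diquat dibromide at 24 and 48 h, 0 and 4 for monocrotaline at 50 mg/kg at 24 and 48 h, and for the isomers 11 and 0 at 150 mg/kg (6 and 48 h) and 3 and 4 at 1500 mg/kg (6 and 24 h). With only the groups compared they were 3 for 1,4-dichlorobenzene at 6 h, 3 for diquat dibromide at 6 h and 0 for galactosamine at 24 h. The mean of probe sets gave 0.23 for N-nitrosomorpholine (24 against 6 h) and 2 for diquat dibromide at 48 h. Without arrays with few dim probe sets, a setting chosen after seeing the data, 1,4-dichlorobenzene at 6 h had 0 and diquat dibromide at 48 h had 2. Necrosis without diquat dibromide gave 13 in place of 30, and vehicle rats at 48 h in place of 24 h gave 24 in place of 13.

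Leaving out 1 rat of each dosed or vehicle group gave 1 to 5 for 1,4-dichlorobenzene at 6 h, 7 to 19 and 0 to 2 for diquat dibromide at 24 and 48 h, 7 to 16 for monocrotaline at 50 mg/kg and 48 h and 7 to 11 for thioacetamide at 6 h. The median differences of times ran from -1.48 to -1.17 for 1,4-dichlorobenzene (48 against 24 h), 0.10 to 0.25 for N-nitrosomorpholine, -1.32 to -1.17 and 0.31 to 0.49 for monocrotaline, and 0.92 to 1.15 for thioacetamide. The cause of these differences was not tested.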
